A study of Mus musculus with 8 samples.

Results

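Gata2, Gata3, Tal1, Sox14, Barhl1, Barhl2, Foxb1, Cartpt and Ucn mark neurons that are not dopaminergic, in regions in or around the ventral thalamus. For Gata2, Gata3, Tal1 and Sox14 these regions include the pretectum and parts of the thalamus itself. Each of the 9 genes was represented by 1 probe set that the platform annotation pairs with that gene symbol alone, of 13524 genes that passed a filter on brightness and 19938 with such a probe set in all. They were followed over the 8 arrays and 4 groups to ask whether tissue was sampled alike in all groups. Thalamic tissue came from both sides of the brain of male C57BL/6 mice, which entered the study at 6 weeks of age and are labelled adult, and 1 array was run for each of 2 mice per group. Control mice were given saline once a day for 4 weeks. The other 3 groups all received the neurotoxin MPTP at 20 mg/kg every 24 hr for 4 weeks, and are called the injected groups, although the saline of the controls was injected too. The MPTP group had no further treatment. The acupoint group was also needled by hand at GB34 and LR3, and the non-acupoint group at both hips, each in 14 sessions 48 hr apart. No group received needling without MPTP.

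Gata2, Gata3 and Tal1 encode transcription factors that act together to make GABAergic neurons of the midbrain, pretectum and rostral thalamus, and Gata2 and Tal1 also serve blood and vessel cells. Sox14 encodes a transcription factor of the GABAergic neurons of the pretectum and lateral geniculate complex. Barhl1 and Barhl2 encode homeodomain factors of the subthalamic and mammillary regions and of nearby diencephalon, and Foxb1 encodes a forkhead factor of the mammillary body. Cartpt encodes the precursor of CART peptides, made in the hypothalamus and the Edinger-Westphal nucleus, and Ucn encodes urocortin, a stress peptide for which that midbrain nucleus is the best known source. The toxic product of MPTP enters neurons through the dopamine transporter, and dopaminergic neurons are its classical target. In bulk tissue, fewer cells of a type and less RNA per cell cannot be told apart.

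Of the members' promoters that hold motifs of the factors named above or of cAMP signalling, 3 are printed, and that of Barhl1 is not. The RefSeq table (GRCm38.p6) held 8 of the 9 members, not Foxb1, with 11 windows of 300 bases from 250 before to 50 after a transcription start. Both strands were searched for TGACGTCA, the cAMP response element, for AGATAA, a site for GATA factors, and for CAGATG, an E-box for Tal1. Cartpt (chr13:99900634-99900933, minus strand) and Ucn (chr5:31138846-31139145, minus strand) were the only members in the table with TGACGTCA, and 1.79% of 32851 promoter windows hold it. It begins 112 bases before the start in Cartpt and 44 bases before it in Ucn. The Tal1 window at chr4:115056176-115056475 (plus strand) holds AGATAA on the reverse strand and CAGATG on the reverse strand. The only other member with AGATAA was Barhl1, and this site was present in 11.2% of all windows. CAGATG, which Cartpt also holds on the reverse strand, was present in 17.2%. The matches are runs of letters and were not tested as binding sites. Capitals mark the matches, and the sequences run 5′ to 3′ in the direction of the gene.
Cartpt: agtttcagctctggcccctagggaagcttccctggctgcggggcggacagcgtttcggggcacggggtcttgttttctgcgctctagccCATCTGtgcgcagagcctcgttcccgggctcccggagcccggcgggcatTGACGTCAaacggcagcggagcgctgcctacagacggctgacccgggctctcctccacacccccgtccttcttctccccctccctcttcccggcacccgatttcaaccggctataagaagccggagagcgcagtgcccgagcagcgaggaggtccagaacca
Ucn: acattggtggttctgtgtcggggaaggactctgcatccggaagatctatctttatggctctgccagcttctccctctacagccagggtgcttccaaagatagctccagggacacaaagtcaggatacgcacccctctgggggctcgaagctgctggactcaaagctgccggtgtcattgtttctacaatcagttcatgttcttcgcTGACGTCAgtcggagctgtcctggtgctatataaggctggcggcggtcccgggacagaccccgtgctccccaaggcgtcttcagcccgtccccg
Tal1: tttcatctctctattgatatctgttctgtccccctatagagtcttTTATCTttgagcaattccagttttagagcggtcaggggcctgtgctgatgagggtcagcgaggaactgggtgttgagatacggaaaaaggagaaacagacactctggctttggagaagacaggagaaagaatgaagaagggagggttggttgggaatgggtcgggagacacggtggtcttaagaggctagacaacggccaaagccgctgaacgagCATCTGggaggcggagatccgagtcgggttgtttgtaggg

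Values are log2 levels on the scale that the authors deposited, and a difference of 1 is a doubling. All 9 members passed the brightness filter, which asked for a mean level above 5.63. Foxb1 was only 0.08 above it, Barhl2 0.34 and Barhl1 0.43, and differences of dim probe sets are compressed. Array medians lay between 6.18 and 6.29. A pair of arrays, MPTP mouse 1 with non-acupoint mouse 1, stood apart: r over probe sets was 0.982 within the pair, 0.905 to 0.936 between it and the remaining 6, and 0.981 to 0.995 among those 6. On these 2 arrays cytosolic ribosome genes were lower than on the other 6 by a median log2 difference of -0.65 over 13 genes. Values without these 2 arrays are given as 6-array values. The titles number the mice but do not say how they were processed, so p-values rest on the spread between 2 arrays a group, pooled over the 4 groups.

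Of the GABAergic transcription factors, Gata3 differed most from control. Its level was 7.18 and 7.01 in control mice 1 and 2, 5.56 and 6.28 in MPTP mice, 6.23 and 5.78 in acupoint mice, and 6.07 and 5.72 in non-acupoint mice. Every injected mouse thus lay below both controls. The group means were 7.09 ± 0.12 in controls, 5.92 ± 0.51 after MPTP, 6.00 ± 0.32 after acupoint and 5.90 ± 0.25 after hip needling (SD, n = 2). The mean of the 3 injected groups was 2.23-fold lower than control (log2 difference -1.15 ± 0.23, SE; adjusted p = 0.274, limma with Benjamini-Hochberg adjustment over all probe sets), which did not pass an adjusted p of 0.05.

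Gata2, the partner of Gata3, varied over a narrower range. It stood at 6.85 and 6.76 in controls, 6.33 and 6.68 in MPTP mice, 6.63 and 6.42 in acupoint mice, and 6.46 and 6.53 in non-acupoint mice. The groups did not overlap with control, but the difference of the injected groups was -0.30 ± 0.14 (SE; limma adjusted p = 0.72). Tal1 was 6.42 and 6.58 in controls, 5.88 and 6.48 in MPTP mice, 6.45 and 6.06 in acupoint mice, and 6.15 and 6.23 in non-acupoint mice. MPTP mouse 2 and acupoint mouse 1 lay between the controls, and the difference was -0.29 ± 0.19 (SE; limma adjusted p = 0.739). Sox14 was 6.59 and 6.87 in controls, 5.77 and 6.28 in MPTP mice, 6.23 and 5.99 in acupoint mice, and 6.06 and 6.09 in non-acupoint mice. All 6 injected mice were below both controls, by a group difference of -0.66 ± 0.17 (SE; 1.58-fold; limma adjusted p = 0.424).

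**Figure D1:**
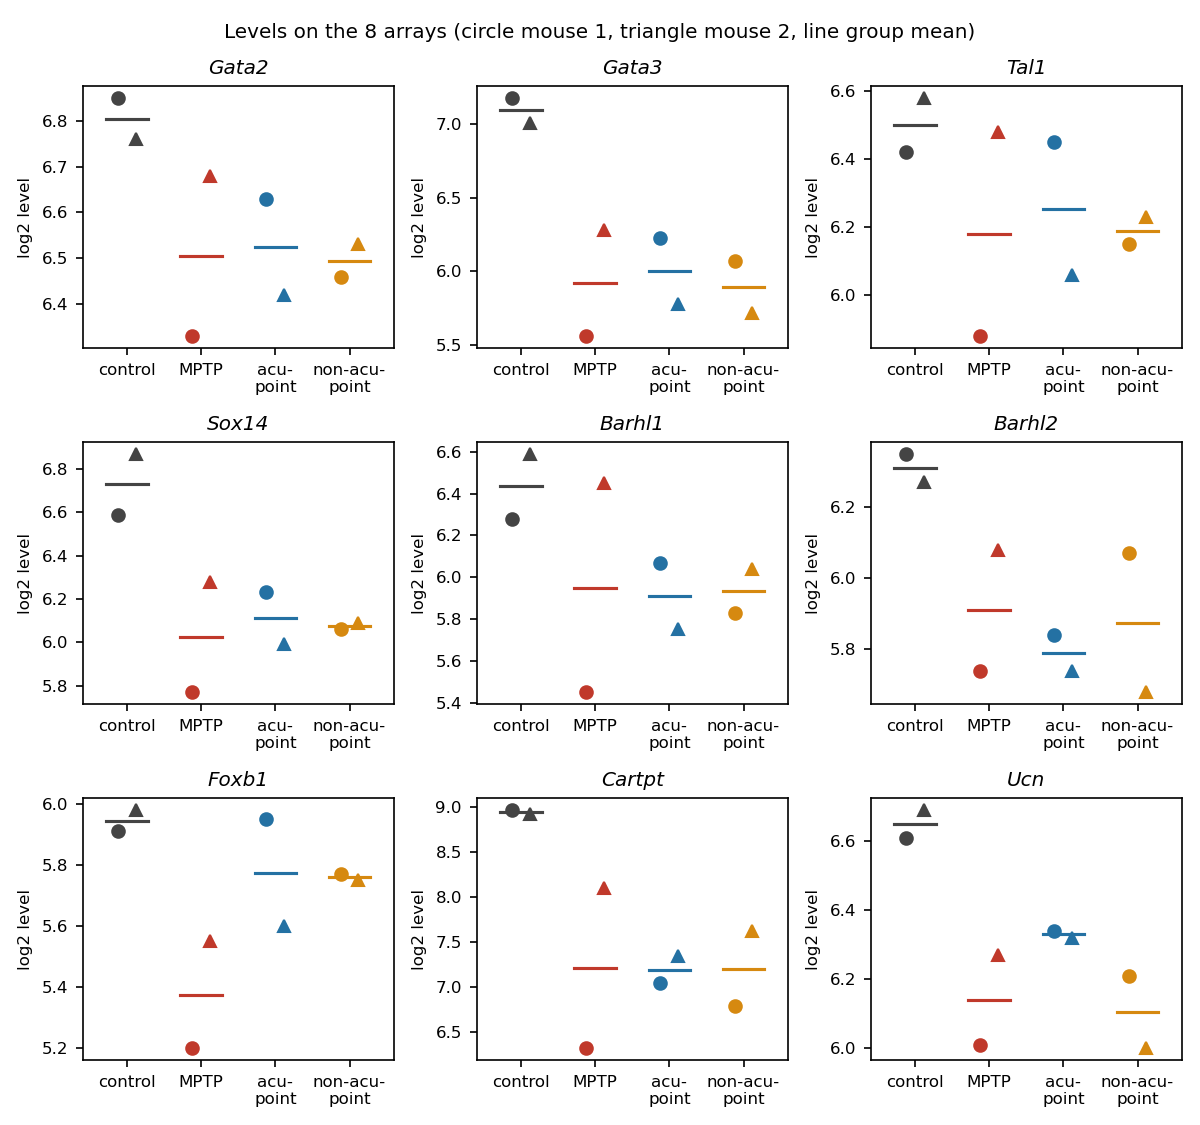
Log2 level of each of the 9 genes (vertical axes, each with its own range) in the 4 groups, with circles for mouse 1, triangles for mouse 2 and lines for group means. Controls lie above all 6 injected mice in 6 of the 9 panels, and the exceptions are Tal1, Barhl1 and Foxb1.

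Among the subthalamic and mammillary genes, Barhl2 separated controls from injected mice and Barhl1 did not. Barhl2 was 6.35 and 6.27 in controls, 5.74 and 6.08 in MPTP mice, 5.84 and 5.74 in acupoint mice, and 6.07 and 5.68 in non-acupoint mice. Barhl1 was 6.28 and 6.59 in controls, 5.45 and 6.45 in MPTP mice, 6.07 and 5.75 in acupoint mice, and 5.83 and 6.04 in non-acupoint mice. MPTP mouse 2 therefore stood between the controls in Barhl1, a full log2 unit (1.00) above MPTP mouse 1. The injected groups differed from control by -0.45 ± 0.15 in Barhl2 and by -0.50 ± 0.27 in Barhl1 (SE; limma adjusted p = 0.593 and 0.739).

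Foxb1, the dimmest member, was 5.91 and 5.98 in controls, 5.20 and 5.55 in MPTP mice, 5.95 and 5.60 in acupoint mice, and 5.77 and 5.75 in non-acupoint mice. It was lowest in the MPTP group (5.37 ± 0.24), with acupoint (5.78 ± 0.25) and non-acupoint mice (5.76 ± 0.01) nearer to control (5.95 ± 0.05, SD, n = 2). Acupoint mouse 1 lay between the controls.

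Cartpt, a peptide gene, was the member furthest from control. Cartpt stood at 8.97 and 8.93 in controls, 6.32 and 8.10 in MPTP mice, 7.04 and 7.34 in acupoint mice, and 6.79 and 7.62 in non-acupoint mice. Controls were close together and every injected mouse was lower, but the injected mice spread over 1.78 between the 2 MPTP mice alone. The mean of the injected groups was 3.34-fold lower (log2 difference -1.74 ± 0.46, SE; limma adjusted p = 0.433). Ucn was 6.61 and 6.69 in controls, 6.01 and 6.27 in MPTP mice, 6.34 and 6.32 in acupoint mice, and 6.21 and 6.00 in non-acupoint mice. It was lower in all 6 injected mice, by a group difference of -0.46 ± 0.12 (SE; 1.37-fold; limma adjusted p = 0.454).

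All 9 members had a lower mean than control in each of the 3 injected groups, and 33% of the 15791 probe sets tested did the same. The members were chosen with earlier results of these data known. Their counts beside the shares of all probe sets, here and below, are therefore descriptive and no independent test. None passed an adjusted p of 0.05 in any comparison by limma over all 8 arrays. MPTP against control had 0 of 15791 probe sets past that threshold and 836 (5.29%) at an unadjusted p under 0.05. Between groups, 52.2%, 50.3% and 52.4% of probe sets were lower in MPTP, acupoint and non-acupoint mice than in control. The median difference over the members was -0.51 in MPTP, -0.52 in acupoint and -0.50 in non-acupoint mice, against -0.02, 0 and -0.02 over all probe sets. These 3 comparisons share the control arrays.

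MPTP against control did not overlap in 7 of the 9 members, all lower, against 20.4% of probe sets, with Tal1 and Barhl1 as the exceptions. At an unadjusted p under 0.05, 5 members were lower (Gata3, Sox14, Foxb1, Cartpt and Ucn), against 1.96% of probe sets. Acupoint mice were below both controls in 7 members, with 29.2% of probe sets. At that level 4 were lower (Gata3, Sox14, Barhl2 and Cartpt), with 2.34% lower and 5.62% called in either direction. Non-acupoint mice were below both controls in all 9, with 22.3% of probe sets. At that level 4 were lower (Gata3, Sox14, Cartpt and Ucn), with 2.2% lower and 4.88% called in either direction. Gata3, Sox14 and Cartpt were thus lower at an unadjusted p under 0.05 in each injected group.

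**Figure D2:**
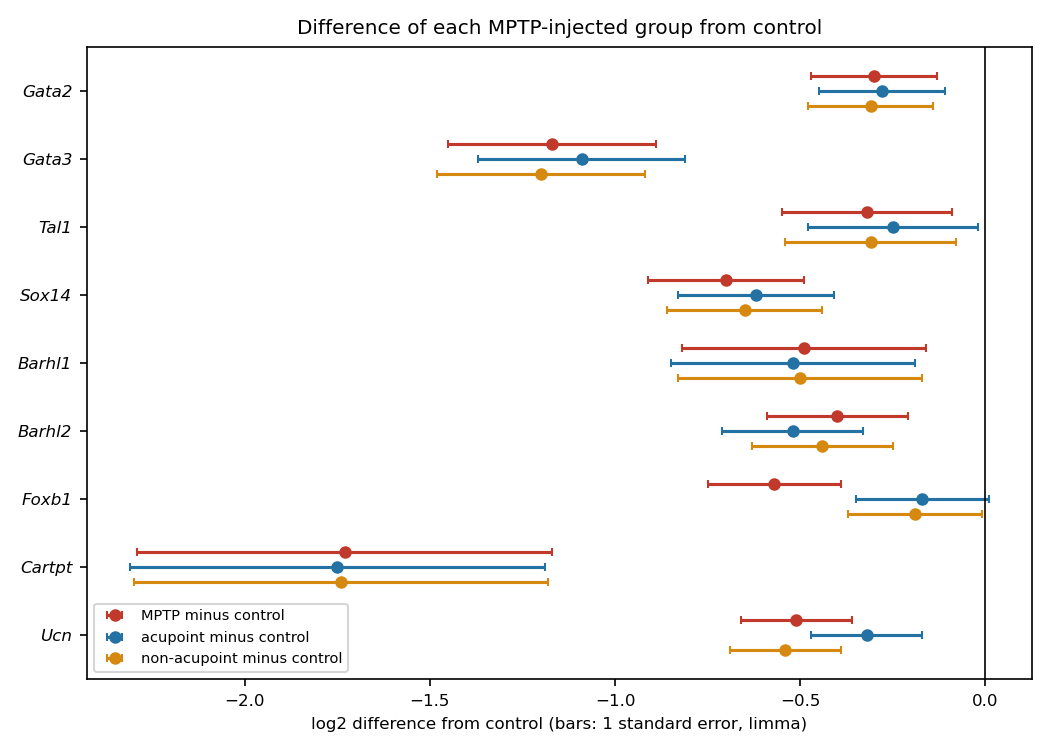
Log2 difference of each injected group from control for the 9 genes (horizontal axis, points with 1 standard error from limma over 8 arrays). Every point lies below 0, and over all 8 arrays the 3 groups of a gene lie closest together in Cartpt and furthest apart in Foxb1.

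In a comparison added after the values were seen, the 3 injected groups were averaged and set against control. Since the choice of members was also informed by these data, the counts that follow are descriptive. All 9 members were lower, as were 52.2% of probe sets, and in 6 members all 6 injected mice lay below both controls, against 9.66% of probe sets. At an unadjusted p under 0.05 it held 5 lower members (Gata3, Sox14, Barhl2, Cartpt and Ucn), against 2.98% of probe sets lower and 7.07% called in either direction. Only 0.0317% of probe sets had a difference as low as that of Cartpt, 0.114% as low as Gata3 and 0.982% as low as Sox14. Barhl1 stood at 2.7%, Ucn at 3.71%, Barhl2 at 3.79%, Foxb1 at 10.7%, Gata2 at 11.8% and Tal1 at 12.1%.

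**Figure D3:**
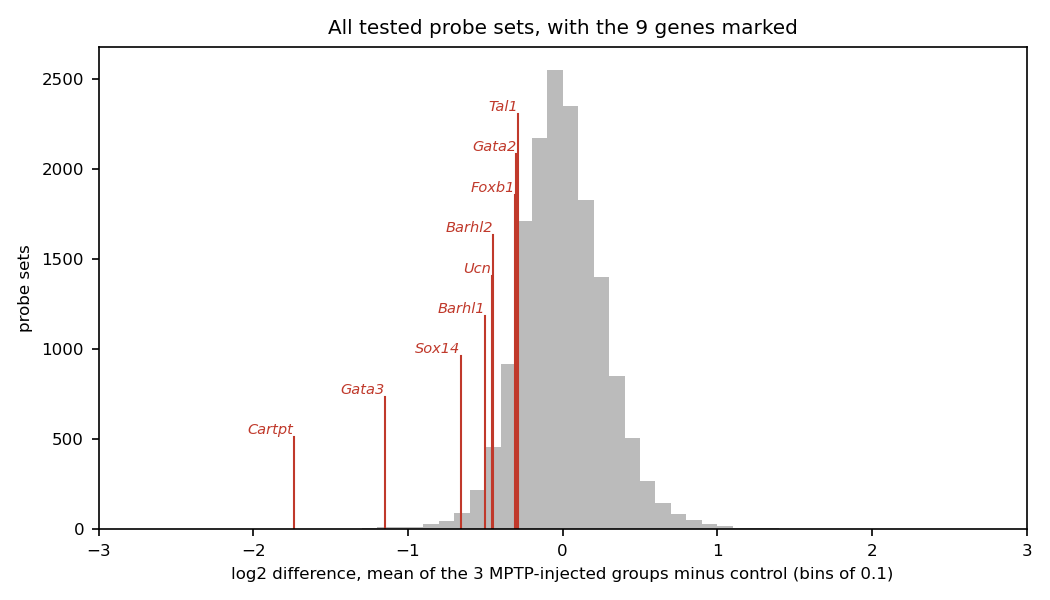
Number of tested probe sets (vertical axis) by log2 difference between the mean of the 3 injected groups and control (horizontal axis, bins of 0.1), with the 9 genes as labelled lines whose heights carry no value. All 9 lie left of 0, from -1.74 for Cartpt to -0.29 for Tal1.

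The injected groups were compared with each other to ask whether needling went with other levels of these genes. In 7 members the 3 injected means lay closer together than the mice of an injected group did on average. The share of all probe sets that did so was not counted, so the 7 cannot be set against it. The Cartpt means were 7.21 ± 1.26, 7.19 ± 0.21 and 7.21 ± 0.59 in MPTP, acupoint and non-acupoint mice (SD, n = 2), a range of 0.02. The Gata2 means had a range of 0.03 and the Gata3 means of 0.10. These means rest on MPTP mouse 1: with 6 arrays, where the MPTP group is mouse 2 alone, Cartpt differed from MPTP by -0.91 ± 0.14 in acupoint and by -0.48 ± 0.16 in non-acupoint mice (SE; limma adjusted p = 0.228 and 0.269). With 6 arrays Barhl1 in acupoint against MPTP went from -0.04 to -0.54 ± 0.17 (SE; limma adjusted p = 0.276), and Gata3 in non-acupoint against MPTP from -0.02 to -0.56 ± 0.22 (SE; limma adjusted p = 0.311). Over 8 arrays the 95% interval of the difference between acupoint and MPTP mice was wide, from -1.37 to 1.33 in Cartpt, from -0.60 to 0.76 in Gata3 and from -0.37 to 0.42 in Gata2.

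Foxb1 and Ucn were the exceptions over 8 arrays. Acupoint and non-acupoint mice lay above MPTP mice in Foxb1 without overlap, by 0.40 ± 0.18 and 0.39 ± 0.18 (SE; limma adjusted p = 0.889 and 1). Acupoint mice lay above MPTP and non-acupoint mice in Ucn, by 0.19 ± 0.15 and 0.23 ± 0.15 (SE; limma adjusted p = 0.889 and 0.893). With 6 arrays the Foxb1 differences were 0.23 and 0.21, and those of Ucn 0.06 and 0.33. Members higher without overlap therefore numbered 2 in acupoint against MPTP, 1 in non-acupoint against MPTP and 1 in acupoint against non-acupoint, against 14.5%, 5.67% and 13.8% of probe sets. The adjusted threshold was passed by 7 probe sets (0.0443%) in non-acupoint against MPTP, and by none in the other two by limma. Over 8 arrays no member reached an unadjusted p under 0.05 in these 3 comparisons, which 1.37%, 1.56% and 1.89% of probe sets did. With 6 arrays 3 members did so in acupoint against MPTP (Barhl1, Barhl2 and Cartpt, all lower), where 15.4% of probe sets did. In non-acupoint against MPTP 4 did so (Gata3, Barhl2, Cartpt and Ucn, all lower), with 15.3%. In acupoint against non-acupoint 2 did so (Cartpt lower and Ucn higher), with 8.95%. None passed an adjusted p of 0.05. In the F test over the 4 groups, 4 members had an unadjusted p under 0.05 (Gata3, Sox14, Cartpt and Ucn), against 3.54% of probe sets, and the smallest adjusted p was 0.884, for Gata3.

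Mice of the same group differed in a pattern that the members shared in part. MPTP mouse 1 was below MPTP mouse 2 in all 9 members, where 50.4% of probe sets were, and it was the lowest of all 8 arrays in 7, against 23.3% of probe sets. Non-acupoint mouse 1, the other array that stood apart, was below its group mate in 5 members and above it in 4, and 51% of probe sets were lower in it. Acupoint mouse 1 was above acupoint mouse 2 in 8 of 9 members and below it in 1, where 56% of probe sets were below. Differences within a group ranged up to 0.30 in controls, 0.45 in acupoint, 0.83 in non-acupoint and 1.78 in MPTP mice, the last 2 in Cartpt.

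Without the 2 arrays that stood apart the spread is that of the control and acupoint pairs alone, and the MPTP and non-acupoint groups hold 1 array each. Acupoint against control rests on the same 4 arrays as before, with the same differences, and 5 members then passed. They were Cartpt (-1.75 ± 0.11, SE; limma adjusted p = 0.00342), Gata3 (-1.09 ± 0.15; adjusted p = 0.0151), Barhl2 (-0.52 ± 0.08; adjusted p = 0.0162), Sox14 (-0.62 ± 0.13; adjusted p = 0.0389) and Ucn (-0.32 ± 0.07; adjusted p = 0.0493). Of all probe sets 8.64% passed in that comparison, and 3.31% passed and were lower. Barhl1 (adjusted p = 0.0787, limma), Gata2 (0.122), Tal1 (0.298) and Foxb1 (0.412) did not pass.

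The same 5 members passed for the mean of the injected groups, where 5.41% of probe sets passed and 2% passed and were lower. Cartpt alone passed in non-acupoint mouse 2 against control (-1.32 ± 0.14; limma adjusted p = 0.0398; 0.329% of probe sets), where 0.12% passed and were lower. No member passed in MPTP mouse 2 against control (0.361% of probe sets, 0.0823% lower). None passed between injected groups, where 0.019% did in acupoint against MPTP, 0.146% in non-acupoint against MPTP and 0.133% in acupoint against non-acupoint. MPTP mouse 2 was nearer to control than MPTP mouse 1 in all 9 members. Against control it stood at -0.84 in Cartpt and -0.81 in Gata3, at -0.02 in Tal1, and at 0.01 in Barhl1, where the sign turned. With these 6 arrays the median over the members was -0.38 in MPTP, -0.52 in acupoint and -0.63 in non-acupoint mice.

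The tissue is labelled thalamic, but genes of midbrain dopaminergic neurons, which border it, were bright in controls. Slc6a3, the dopamine transporter gene, stood at 9.96 and 9.83 in controls, 6.20 and 9.39 in MPTP mice, 6.10 and 6.09 in acupoint mice, and 6.64 and 7.83 in non-acupoint mice. Th, which encodes the rate-limiting enzyme of dopamine synthesis, followed at 9.34 and 9.10, 6.15 and 8.75, 5.97 and 6.22, and 6.72 and 7.40 in the same order. Levels of Slc6a3 fell into separate clusters, with the controls and MPTP mouse 2 between 9.39 and 9.96 and the other 5 arrays between 6.09 and 7.83, so no correlation over arrays is given.

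MPTP mouse 2, which kept Slc6a3 within 0.50 of the control mean, was also the highest of the 6 injected mice in 7 of 9 members, against 19.1% of probe sets. Acupoint mouse 1 was the highest in Foxb1 and Ucn. In Gata3, MPTP mouse 2 (-0.81 from the control mean) and acupoint mouse 1 (-0.87) were almost level, while in Slc6a3 they stood at -0.50 and -3.79. In Cartpt the same mice stood at -0.84 and -1.90. Between groups, acupoint and MPTP mice differed by -1.70 ± 0.95 in Slc6a3 (SE; limma adjusted p = 0.889) and by -0.02 ± 0.56 in Cartpt. With 6 arrays, where the MPTP group is mouse 2 alone, acupoint mice differed from it by -3.30 in Slc6a3 and by -0.91 in Cartpt. MPTP mouse 1, which those values leave out, stood at 6.20 in Slc6a3, near the acupoint mice at 6.10 and 6.09. In Cartpt it stood at 6.32, below the acupoint mice at 7.04 and 7.34.

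**Figure D4:**
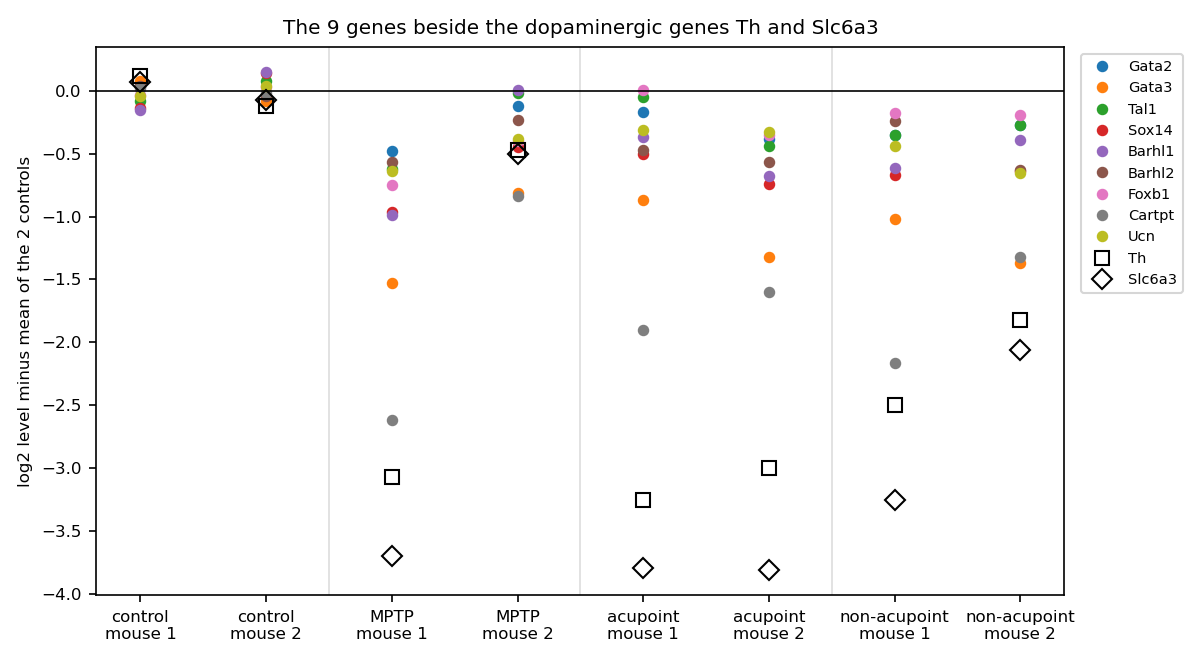
Log2 level minus the mean of the 2 controls (vertical axis) on each of the 8 arrays (horizontal axis), with filled circles for the 9 genes and open symbols for Th and Slc6a3. MPTP mouse 2 has Slc6a3 at -0.50 and the genes between -0.84 and 0.01, and the acupoint mice have Slc6a3 near -3.80 with most of the genes above -1.

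Other genes of the same regions were taken from lists, none of whose genes passed over all 8 arrays in the comparison of injected groups with control. The lists were chosen with earlier results of these data known, so their counts are descriptive. Of 12 tested genes of the midbrain and pretectal GABA programme 9 were lower, with a median of -0.21. Lhx5 (-0.87 ± 0.24, SE) and Lhx1 (-0.44 ± 0.14), which encode LIM homeodomain factors, were lower in all 6 injected mice (limma adjusted p = 0.459 and 0.529). Otx2, a homeodomain factor also made by the choroid plexus, was 0.35 in the other direction, and Gad1 and Gad2, which make GABA in all GABAergic neurons, were 0.06 and -0.03. Slc32a1, a further GABAergic gene of the list, was -0.43 ± 0.23 (SE; limma adjusted p = 0.739) and lower in all 6 injected mice. Partners of the GATA and Tal1 factors were lower in 11 of 13, with a median of -0.24, and Tcf3 (-0.31), Lyl1 (-0.28) and the LIM-only gene Lmo4 (-0.24) had the smallest F test p.

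Subthalamic and mammillary genes were lower in 7 of 8 (median -0.37). Those of smallest F test p were Sim1 (-0.37), Uncx (-0.37) and Ebf3 (-0.71 ± 0.27, SE; limma adjusted p = 0.66), all of which encode transcription factors. Ebf3 was 7.44 and 7.31 in controls, 6.39 and 7.04 in MPTP mice, 6.29 and 6.04 in acupoint mice, and 7.54 and 6.67 in non-acupoint mice, so non-acupoint mouse 1 lay above both controls. Acupoint minus non-acupoint mice was -0.86 in Sim1 and -0.94 in Ebf3, which were picked by their F test. Over the 8 genes of the list this difference was above 0 in 3 and below 0 in 5, with a median of -0.06.

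Genes of the Edinger-Westphal and oculomotor nuclei were split, 4 higher and 4 lower of 8 (median 0.04). The peptide gene Adcyap1 (-0.86 ± 0.26, SE) and the ghrelin receptor gene Ghsr (-0.37 ± 0.12) were lower in all 6 injected mice (limma adjusted p = 0.507 and 0.565), and Cck was 0.37. The cholinergic genes Chat, Slc5a7 and Slc18a3 were 0.10 ± 0.18, 0.40 ± 0.43 and -0.02 ± 0.25 (SE). Of the urocortin family and its receptors 3 of 6 were tested. Crhr1, a receptor for urocortin, was -0.57 ± 0.23 (SE; limma adjusted p = 0.689), the binding protein gene Crhbp was -0.46 and the other receptor gene, Crhr2, was 0.24.

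Marker lists of neighbouring tissue differed between the same groups. These lists too were chosen with earlier results of these data known, so their counts and means describe the arrays and are no independent test. Thalamic projection neuron genes were higher in injected mice in 14 of 14 (median 0.75), among them Slc17a7, Vav3 and Plekhg1 (0.97, 1.13 and 1.23, each with limma adjusted p = 0.162). All 13 tested dopaminergic genes lay below control (median -0.66), and so did 14 of 15 hypothalamic genes (median -0.46). In 8 of these 15 all 6 injected mice lay below both controls, against 9.66% of probe sets. Among them were Hdc, which makes histamine (-1.27 ± 0.19, SE), and Irs4 (-1.08 ± 0.16). The peptide genes Hcrt and Pmch differed widely between mice of each injected group. Hcrt was 8.94 and 9.16 in controls, 6.85 and 9.46 in MPTP, 5.55 and 8.41 in acupoint, and 7.31 and 9.95 in non-acupoint mice. Pmch was 10.14 and 10.18, 7.76 and 10.29, 6.61 and 9.58, and 8.36 and 10.62 in the same order. Over the arrays the mean level of the thalamic list was 8.60 and 8.72 in controls and 9.22 to 9.59 in injected mice, without overlap. That of the dopaminergic list was 8.34 and 8.22 in controls and 6.82 to 7.89 in injected mice. Zona incerta and prethalamic genes were divided (4 of 9 lower, median 0.04). So were habenular (3 of 10 lower, median 0.18) and striatal genes (5 of 8 lower, median -0.15), but these averages hide differences between injected mice. Habenular genes were higher in acupoint than in non-acupoint mice in 8 of 10 (median 0.63). The mean level of the striatal list was 8.70 and 8.82 in controls, 9.90 and 8.04 in MPTP mice. It was 7.76 and 8.92 in acupoint mice, and 8.59 and 8.39 in non-acupoint mice. Choroid plexus genes were higher in 11 of 12 (median 0.91), although their mean level was 6.70 and 6.74 in controls, 8.00 to 8.62 in MPTP and acupoint mice, and 5.60 and 5.67 in non-acupoint mice. The only serotonergic gene tested, Htr1a, was -0.72 ± 0.13 (SE; limma adjusted p = 0.222). How much of the members' differences goes with the tissue that was taken was not tested, and with every injected group treated with MPTP, tissue sampling and treatment cannot be told apart.

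Other cells express some members. Endothelial genes were higher in 9 of 11 (median 0.22), with list means of 7.59 and 7.57 in controls, 8.02 and 7.54 in MPTP mice, 7.66 and 7.80 in acupoint mice, and 7.91 and 7.72 in non-acupoint mice. Both tested erythroid genes, Slc4a1 (-0.24) and Epor (-0.09), were lower, of 11 listed. Of 9 mast cell genes only Kit was above the filter, at 7.38 and 7.33 in controls and 6.32 to 8.35 in injected mice. Cytosolic ribosome genes were lower in 13 of 13 (median -0.35), with list means of 10.78 in both controls, 10.03 and 10.71 in MPTP mice, 10.59 and 10.60 in acupoint mice, and 10.20 and 10.69 in non-acupoint mice. Complex I genes were lower in 14 of 17 (median -0.12). Their list means were 9.80 and 9.82 in controls, 9.28 and 9.91 in MPTP, 9.83 and 9.84 in acupoint, and 9.31 and 9.87 in non-acupoint mice. The low values were thus those of the 2 arrays that stood apart. In acupoint against control 11 of 17 were higher (median 0.02). The part of these cells and of RNA quality in the members' differences was not tested.

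The genes whose levels were most like those of each member over the 8 arrays were found by Pearson's r among tested genes. They are descriptive, since the arrays share groups and the 2 that stood apart. Tal1 was closest to Sct (r = 0.998), the secretin gene, and Dbx1 (0.995), a homeodomain gene. Gata2 was closest to Spr (0.990) and Gata3 to Trmo (0.988). Sox14 was closest to the hypothalamic homeodomain gene Nkx2-4 (0.979), Barhl1 to Sost (0.992) and Barhl2 to Jph2 (0.984) and Prrxl1 (0.977). Foxb1 had its nearest gene in Prph (0.953), which encodes peripherin, Cartpt in Irf8 (0.987) and Ucn in Lama1 (0.961). No member was among the 3 genes closest to another, but r between members ran from 0.521 (Barhl2 with Foxb1) to 0.958 (Tal1 with Barhl1).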

How the data were processed

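Total RNA (300 ng per array) was labelled for Affymetrix whole-transcript arrays. The deposited values are log2 levels per probe set, which the authors made with Affymetrix Expression Console and RMA, per the submitters' processing notes. RMA corrects background, normalizes between arrays and summarizes probes, and compresses differences of dim probe sets. Neither versions nor a genome build is given in the sources used here.

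Of 35557 probe sets, 21789 had 1 gene symbol in the platform annotation, 1621 several and 12147 none. Unnamed probe sets and the dimmest 40% by mean (5.63 or lower) were left out, which left 15791. R 4.3.3 and limma 3.58.1 fitted a mean per group to all 8 arrays (lmFit, eBayes; 4 residual and 2.53 prior degrees of freedom). Tests were two-sided, with Benjamini-Hochberg adjustment over all 15791 and a threshold of 0.05. Precision is limited by having 8 arrays. The fit was run on simulated data with planted differences and independent noise of the same spread on every array of a probe set. Those data held no arrays that stand apart and no groups of unequal spread. They therefore do not show how the fit behaves under these conditions of the real arrays.

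The members, 18 gene lists (224 symbols, 196 matched) and first alternatives were chosen with earlier results of these data known, and the comparison of all injected groups with control was added after the files were seen. Text names all members, Th and Slc6a3, up to 3 genes per list by smallest F test p, and the 3 genes most like each member. Gad1, Gad2, Slc32a1, Chat, Slc5a7, Slc18a3, Hcrt and Pmch were chosen after their values were seen. Correlations of members with Slc6a3 had been planned and are not given, since its levels fall into clusters of 3 and 5 arrays.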

Additional observations from a re-analysis of the deposited data

How the results depend on the processing

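Of 715 member values recomputed under 19 alternatives, 687 kept their direction and side of the threshold, 25 newly passed and 3 turned in sign. The 3 were Barhl1 in MPTP against control, at 0.01 with the 6 arrays and between -0.99 and 0.01 when single mice were left out, and Foxb1 in acupoint against control, between -0.35 and 0.01 when single mice were left out. Between injected groups, only values of Foxb1 and Ucn were among the 715. Several members left out there turned in sign with the 6 arrays, where the MPTP group is mouse 2 alone. In acupoint against MPTP, Gata2 went from 0.02 to -0.15 and Gata3 from 0.08 to -0.28. There Tal1 went from 0.07 to -0.22 and Sox14 from 0.08 to -0.17. Tal1 and Sox14 also turned in non-acupoint against MPTP, to -0.25 and -0.19. The values that newly passed came from the 6 arrays (11), a fit of the compared pair of groups alone (5), array weighting (7) and a term for the 2 arrays that stood apart (2). The probe sets past the threshold with the 6 arrays numbered 57 in MPTP against control, 3 in acupoint against MPTP, 23 in non-acupoint against MPTP (7 over all 8 arrays), 21 in acupoint against non-acupoint, 1365 in acupoint against control, 52 in non-acupoint against control, 855 for the injected groups and 422 in the F test. With a term for the 2 arrays that stood apart they numbered 12, 0, 42, 13, 580, 16, 333 and 206 in that order. Array weights gave 0 in non-acupoint against MPTP, 2 in acupoint against non-acupoint, 1738 in acupoint against control, 230 for the injected groups and 558 in the F test. Fits on only the 2 groups compared gave 0 in non-acupoint against MPTP and 1365 in acupoint against control. No brightness filter gave 2 in acupoint against non-acupoint, 1 in non-acupoint against control, 1 for the injected groups and 5 in the F test, and an intensity trend gave 2 and 3 in acupoint against non-acupoint and the F test. Leaving out single mice gave 0 to 5 in non-acupoint against MPTP, 0 to 1 in acupoint against non-acupoint, acupoint against control and non-acupoint against control, and 0 to 9 for the injected groups. The cause was not tested. With the mouse number as a replicate block, 5 probe sets passed in non-acupoint against MPTP and no member value recomputed with it changed its call. Deviations of same-numbered mice correlated between -0.28 and 0.82 over the 6 pairs of groups, not above 0.1 in every pair, so the numbers were not taken to pair the mice. The 0.82 is that of MPTP and non-acupoint mice, whose mouse 1 arrays stood apart together. Each member has 1 probe set, so averaging probe sets could change nothing. The dimmest members, Foxb1, Barhl2 and Barhl1, lie within 0.43 of the filter.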
